A study of Mus musculus with 4 samples.

Results

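The genes described are 9 transcription factors of the cortical interneuron lineage, Dlx1, Dlx2, Dlx5, Dlx6, Lhx6, Sp8, Npas1, Sox6 and Maf. They were chosen by name, and each was read by 1 probe set that the platform annotation pairs with that symbol alone. All 9 were measured, out of 19938 genes on the array. The cultures were cortical neurons from newborn pups (postnatal day 0) of a mixed SV129 x C57BL/6 strain. The labels say that pups were Syt1 deficient or wild-type and do not say which sample came from which.

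Cultures were infected with lentivirus at 5 days in vitro, and RNA was taken at 14 to 15 days. Knockdown cultures received shRNAs against the calmodulin genes. Rescue cultures received the same shRNAs together with shRNA-resistant wild-type calmodulin. Each of these groups had 2 samples, and each sample was deposited only as a ratio to the control-virus culture of its own repeat, so both groups of a repeat share a control. The cultures were bulk preparations in medium with Ara-C, an inhibitor of dividing cells. In such samples fewer cells of a type and less RNA per cell cannot be told apart. A ratio carries no expression level, so neither the presence of interneurons nor the order of these genes by level could be read from the data.

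Cortical interneurons are inhibitory neurons that use GABA. They are born below the cortex, in the ganglionic eminences, and migrate into it. The Dlx homeodomain proteins act early in the lineage: Dlx1 and Dlx2 are switched on in progenitors and are needed for expression of Dlx5 and Dlx6 in their progeny. Lhx6, Sox6 and Maf then direct the cells of the medial ganglionic eminence, which become mainly parvalbumin and somatostatin neurons. Sp8 marks cells of the caudal and lateral eminences, and Npas1 is a transcriptional repressor found in subsets of interneurons.

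None of the 9 genes passed the threshold in any of the 3 comparisons, knockdown against control, rescue against control or knockdown against rescue. The threshold was a limma p-value of 0.05 after Benjamini-Hochberg adjustment over all genes. Across all genes that rule called 0.306%, 0% and 0.0702% in the same order. At an unadjusted p under 0.05 there were 3 members (Dlx5, Dlx6 and Sox6) in the first comparison, against 16.0% of all genes. There were 2 (Lhx6 and Maf) in the second, against 7.44%, and 1 (Sox6) in the third, against 6.82%. By sample, Dlx6 lay below control in every sample, and all 9 genes lay below control in rescue repeat 2. Sox6 stood above control in the knockdown and below it in the rescue in both repeats.

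**Figure D1:**
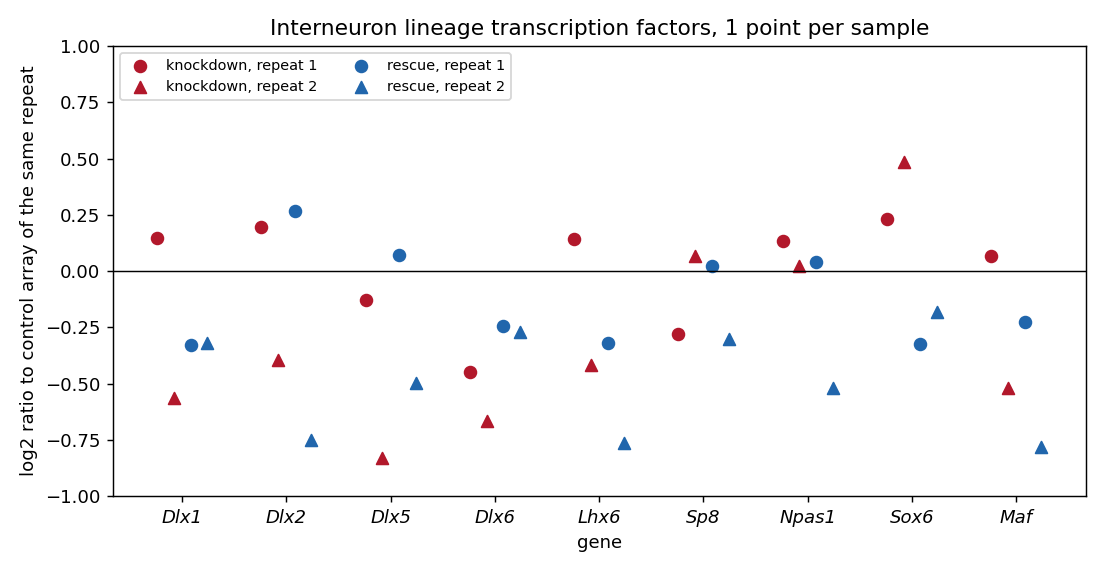
Log2 ratio to control (vertical axis) of each transcription factor (horizontal axis) in the 4 samples; red marks knockdown, blue rescue, circles repeat 1, triangles repeat 2, and the line at 0 is equality with control. Every rescue repeat 2 triangle lies below 0, from -0.18 for Sox6 to -0.78 for Maf, and Dlx6 is the gene with all 4 points below 0.

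Targeted genes served as a check of the labels. On the log2 scale Calm2 was at -1.08 and -1.72 in the knockdown repeats and at -0.84 and -1.28 in the rescue repeats. Calm3 was at -1.32 and -2.40, then at -2.41 and -3.55. Both lay below control in every culture that carried the shRNAs, and lower in repeat 2 than in repeat 1 in both groups. Over all genes the log2 ratios spread most in knockdown repeat 2 (SD 0.35, against 0.23 to 0.24 elsewhere).

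Dlx1 and Dlx2 encode the homeodomain proteins at the head of the lineage and are neighbours on chromosome 2. The 250 bases before their annotated starts follow, with those of Sox6, the gene that differed most between knockdown and rescue, from RefSeq on GRCm38.p6 in the direction of transcription. CREB, a factor that calmodulin-dependent kinases activate, is known to bind the cyclic AMP response element, and capitals mark its core, TGACG, searched on both strands. The Dlx1 window is chr2:71529195-71529444 on the plus strand. The Dlx2 window is chr2:71546755-71547004 on the minus strand. The Sox6 window is chr7:116038745-116038994 on the minus strand, the most upstream of 6 listed starts.
Dlx1: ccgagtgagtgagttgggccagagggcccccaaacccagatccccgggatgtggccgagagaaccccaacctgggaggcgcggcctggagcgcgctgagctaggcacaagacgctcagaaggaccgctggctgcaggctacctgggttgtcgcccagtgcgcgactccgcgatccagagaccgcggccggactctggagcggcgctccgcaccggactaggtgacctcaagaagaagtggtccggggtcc
Dlx2: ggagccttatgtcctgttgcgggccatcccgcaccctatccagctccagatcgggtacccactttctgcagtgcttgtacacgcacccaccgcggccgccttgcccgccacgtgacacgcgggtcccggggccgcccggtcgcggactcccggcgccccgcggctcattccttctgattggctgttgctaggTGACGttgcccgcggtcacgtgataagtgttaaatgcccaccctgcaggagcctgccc
Sox6: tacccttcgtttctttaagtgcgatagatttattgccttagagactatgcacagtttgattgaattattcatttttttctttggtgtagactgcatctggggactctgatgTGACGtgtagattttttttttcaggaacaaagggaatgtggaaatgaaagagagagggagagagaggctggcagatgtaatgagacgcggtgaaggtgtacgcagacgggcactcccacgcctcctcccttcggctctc

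Windows were at hand for 6 of the 9 genes (Dlx1, Dlx2, Lhx6, Sp8, Npas1 and Sox6), 15 in number. None was at hand for Dlx5, Dlx6 and Maf. The core was in 2 of the 15 (13.3%), the Dlx2 window and the Sox6 window printed here, against 17.8% of all 32851 windows of this length. The homeodomain core TAATTA, searched on both strands as well, was in 1 of the 15, a window of Sp8, against 4.84% of all windows. A match is only a description of the letters.

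Dlx1 had log2 ratios of 0.15 and -0.56 in knockdown repeats 1 and 2, and of -0.33 and -0.32 in rescue repeats 1 and 2. It lay above control only in knockdown repeat 1, and the groups overlapped. Its mean was -0.21 in the knockdown (SE 0.17, n = 2, limma adjusted p = 0.581) and -0.32 in the rescue (SE 0.17, n = 2, adjusted p = 0.720).

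Dlx2 was at 0.20 and -0.39 in the knockdown and at 0.27 and -0.75 in the rescue. Both samples of repeat 1 lay above control and both of repeat 2 below it. Its means were -0.10 and -0.24 (SE 0.24 for each, n = 2), with limma adjusted p = 0.866 and 0.862. Dlx2 thus had the largest standard error of the 9 genes. In rescue repeat 2 only 0.532% of all genes had a lower ratio.

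Dlx5 and Dlx6, which follow Dlx1 and Dlx2 in the lineage, are neighbours on chromosome 6. Dlx5 was at -0.13 and -0.83 in the knockdown and at 0.07 and -0.50 in the rescue. It was lowest in knockdown repeat 2, where its ratio was 0.562 of control. Its knockdown mean was -0.48 (SE 0.20, n = 2, limma adjusted p = 0.286), or 0.717 of control, and its rescue mean -0.21 (adjusted p = 0.853).

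Dlx6 was at -0.45 and -0.66 in the knockdown and at -0.24 and -0.27 in the rescue. All 4 samples lay below control, and both knockdown samples lay below both rescue samples. The share of all genes with that order of the groups was not counted. Of the 9 genes Dlx6 was the only one below control in all 4 samples, as were 14.9% of all genes. Its knockdown mean of -0.56 (SE 0.12, n = 2), or 0.680 of control, was the nearest to the threshold (limma adjusted p = 0.0967). The rescue mean was -0.26 (SE 0.12, adjusted p = 0.686).

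The call for Dlx5 and Dlx6 depended on how the repeat was treated. With the repeat as a block both passed in the knockdown (limma adjusted p = 0.0388 and 0.0273), in a fit that called 5.39% of all genes there. The same fit called 0.125% of genes in the rescue and 0.617% between knockdown and rescue, and none of the 9 genes in either. That block takes out whatever the samples of a repeat have in common, the spread of their shared control included. Blocked p-values against control, here and below, leave that spread out and can therefore be too small. Without knockdown replicate 1 both passed too (adjusted p = 0.0164 and 0.0376), in a fit that called 6.38% of all genes. There the knockdown is 1 sample, assumed to vary as the rescue samples do. Over 11 alternative settings the adjusted p ran from 0.0164 to 0.961 for Dlx5 and from 0.0273 to 0.508 for Dlx6.

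The 4 Dlx genes together averaged -0.06 and -0.61 in the knockdown repeats and -0.06 and -0.46 with rescue. Their average was near control in both samples of repeat 1 and below it in both of repeat 2. Among named genes outside the 9, the 5 whose 4 log2 ratios lay closest to this average were Rnf182, Tmem42, Bcl11b, Zfp536 and Slc6a20b, at Euclidean distances of 0.06 to 0.11. With 4 samples many genes come close: 146 genes lay nearer to the average than Dlx5 did, and 2380 nearer than Dlx2. Bcl11b, a zinc finger factor of deep-layer projection neurons and striatal neurons, was at -0.11, -0.56, -0.10 and -0.47 in the same order of samples.

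Transcripts related to these genes were on the array too. Dlx1as, an antisense RNA of the Dlx1 locus, was at -0.84 and -1.47 in the knockdown and at 0.14 and -0.96 in the rescue. Its knockdown mean was -1.15 (SE 0.25, n = 2) and missed the threshold (limma adjusted p = 0.0967), but passed with the repeat as a block (adjusted p = 0.00327). Whether the array tells this RNA apart from Dlx1 transcripts was not tested. Dlx4, a family member that acts mainly outside the brain, was at -0.10 and -0.15 in the knockdown and at -0.17 and -0.23 in the rescue.

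Lhx6, the LIM homeodomain factor that sets the fate of medial eminence interneurons, was at 0.14 and -0.42 in the knockdown and at -0.32 and -0.76 in the rescue. The rescue sample was below the knockdown sample in each repeat, although the groups overlapped between repeats. The rescue mean of -0.54 (SE 0.17, n = 2), or 0.687 of control, was the lowest of the 9 genes in that group and did not pass (limma adjusted p = 0.570). The knockdown mean was -0.14 (adjusted p = 0.732).

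Maf, a basic leucine zipper factor of the same cells that is also known from macrophages and microglia, was at 0.07 and -0.52 in the knockdown and at -0.23 and -0.78 in the rescue. Its order over the 4 samples was that of Lhx6. The rescue mean was -0.51 (SE 0.18, n = 2, limma adjusted p = 0.610) and the knockdown mean -0.23 (adjusted p = 0.578). In rescue repeat 2 Maf lay below all but 0.451% of genes and Lhx6 below all but 0.492%. The 10 microglia markers had medians of -0.29 and -0.02 in the knockdown repeats and -0.34 and -0.18 with rescue, lower in repeat 1 than in repeat 2, where Maf was lower in repeat 2. Single microglia markers ranged from -0.63 to 0.35 in the knockdown and from -0.92 to 0.35 in the rescue. The part of microglia in the Maf values was not tested.

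Sox6, an HMG box factor that acts after Lhx6 in these interneurons and is also known from oligodendrocyte precursors, was at 0.23 and 0.49 in the knockdown. It was at -0.32 and -0.18 in the rescue. The groups did not overlap, and each lay on its own side of control. The share of all genes that did so was not counted. Knockdown above rescue in both repeats, a looser rule, held for 30.1% of all genes. The knockdown mean was 0.36 (SE 0.13, n = 2), 1.28-fold above control, with a limma adjusted p of 0.225. The rescue mean was -0.25 (SE 0.13, n = 2, adjusted p = 0.701).

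Astrocyte markers too were higher in the knockdown than in the rescue. All 10 astrocyte markers lay above control in both knockdown repeats, and their medians were 0.27 and 0.37 there against -0.08 and -0.03 in the rescue. They ranged from 0.02 to 0.72 in the knockdown and from -0.62 to 0.24 in the rescue. Across all genes 30.5% lay above control in both knockdown repeats. After quantile normalization Aldoc was at -0.005 instead of 0.02 in knockdown repeat 2, which left 9 of 10. Of the astrocyte markers 0 passed the threshold in limma. In the knockdown 7 had an unadjusted limma p under 0.05 (16.0% of all genes), and 3 passed in the blocked fit (5.39%). The 9 oligodendrocyte lineage markers had medians of 0.03 and 0.18 in the knockdown repeats and -0.09 and -0.15 with rescue, and 3 of the 9 were above the rescue in both repeats. Sox10, a defining factor of that lineage, was at 0.44 and 0.21, then at 0.48 and 0.01. The part of either cell type in the Sox6 values was not tested.

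Sp8, a zinc finger factor of caudal and lateral eminence interneurons, was at -0.28 and 0.07 in the knockdown and at 0.02 and -0.30 in the rescue. Neither group kept a side of control. Its means were -0.11 (SE 0.14, n = 2, limma adjusted p = 0.747) and -0.14 (adjusted p = 0.868).

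Npas1, a basic helix-loop-helix PAS repressor, was at 0.13 and 0.02 in the knockdown and at 0.04 and -0.52 in the rescue. It stayed near control in 3 samples and was low in rescue repeat 2, below all but 1.84% of genes. Its means were 0.08 (SE 0.15, n = 2, limma adjusted p = 0.838) and -0.24 (adjusted p = 0.774). The knockdown repeat 2 value turned from 0.02 to -0.003 after quantile normalization, as the 1 of 36 values of these 9 genes to cross 0 there.

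Read by group, the knockdown means of the 9 genes ran from -0.56 (Dlx6) through -0.48 (Dlx5) to 0.36 (Sox6), with a median of -0.14 against 0.00 over all genes. Between them stood Maf, Dlx1, Lhx6, Sp8, Dlx2 and Npas1 in rising order. In the rescue all 9 means lay below 0, from -0.54 (Lhx6) to -0.14 (Sp8), with a median of -0.25 against -0.01 over all genes. The gap between neighbours in these orders was at most 0.28 in the knockdown and 0.18 in the rescue, and the standard errors were 0.12 to 0.24.

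The count of members below control differed between samples. It was 3 of 9 in knockdown repeat 1 and 6 of 9 in knockdown repeat 2, where 53.0% and 47.6% of all genes were below control. It was 5 of 9 in rescue repeat 1 and 9 of 9 in rescue repeat 2, where 51.9% and 52.9% were. Below control in both repeats were 2 of 9 in the knockdown (31.1% of all genes) and 5 of 9 in the rescue (29.8%). Npas1 and Sox6 were above control in both knockdown repeats, Npas1 not so after quantile normalization, which put 7 of 9 below control in knockdown repeat 2. Median member values were 0.13, -0.42, -0.23 and -0.50 in the same order of samples.

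The members differed between the repeats as well. In the knockdown 7 of 9 genes were lower in repeat 2 than in repeat 1 (46.7% of all genes), with a median difference of -0.56 against 0.02 over all genes. In the rescue 7 of 9 were lower as well (51.3% of all genes), with a median of -0.44 against -0.01. Sox6 was higher in repeat 2 in both groups. Sp8 was higher in the knockdown and Dlx1 by 0.01 in the rescue. Since the samples of a repeat share a control, the 2 groups are not separate evidence of this difference. Projection neuron transcription factors had medians of -0.21 and 0.14 for the same difference, and interneuron subtype markers -0.63 and -0.16.

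**Figure D2:**
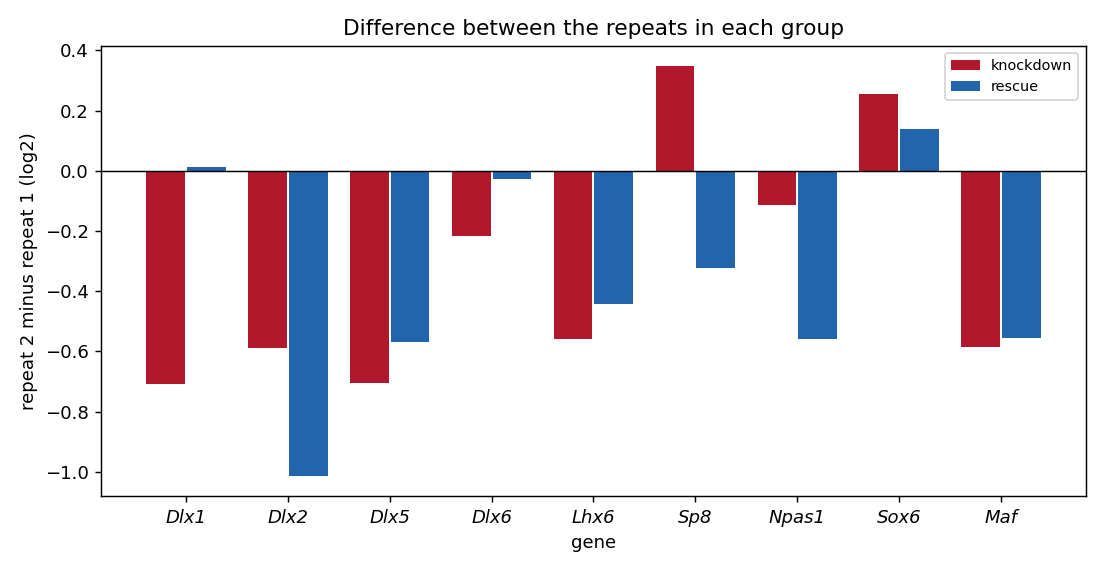
Repeat 2 minus repeat 1 on the log2 scale (vertical axis) for each gene (horizontal axis), with bars from 0 for knockdown (red) and rescue (blue), each bar a difference of 2 samples. Most bars point down, the longest being Dlx2 in the rescue at -1.01, and Sox6 is the gene with both bars above 0.

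The comparison of knockdown with rescue asked what the resistant calmodulin changed, and within a repeat the shared control drops out of it. Knockdown was above rescue in both repeats for 4 of 9 genes, Lhx6, Npas1, Sox6 and Maf, as it was for 30.1% of all genes. It was below rescue in both repeats for Dlx5 and Dlx6, and the share of all genes in that direction was not counted. Dlx1, Dlx2 and Sp8 changed sign between repeats.

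Sox6 differed most, with knockdown minus rescue at 0.55 in repeat 1 and 0.67 in repeat 2. The mean of 0.61 (SE 0.18, n = 2 per group, 95% interval 0.20 to 1.02) made it 1.53-fold higher in the knockdown, with a limma adjusted p of 0.420. For Lhx6 the differences were 0.47 and 0.35 (mean 0.41, 95% interval -0.15 to 0.96). For Maf they were 0.29 and 0.26 (mean 0.28, 95% interval -0.31 to 0.87), and for Npas1 0.09 and 0.54 (mean 0.32, 95% interval -0.18 to 0.81).

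Dlx6 differed by -0.20 and -0.39 (mean -0.30, 95% interval -0.69 to 0.09). Dlx5 differed by -0.20 and -0.34 (mean -0.27, 95% interval -0.91 to 0.37). For Dlx2 the mean was 0.14 (95% interval -0.62 to 0.91), for Dlx1 0.12 (-0.43 to 0.67) and for Sp8 0.03 (-0.43 to 0.49). These intervals, from the fit without the block, held 0 for all but Sox6. With the repeat as a block all 9 were narrower: that of Dlx2 was -0.23 to 0.52, that of Sox6 0.27 to 0.95, and that of Lhx6, 0.07 to 0.75, no longer held 0. None of the 9 passed the adjusted threshold there either, Sox6 being nearest (limma adjusted p = 0.128) and Lhx6 next (0.325). All 10 astrocyte markers were above the rescue in both repeats as well, with medians of 0.40 in each (9 of 10 after quantile normalization).

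**Figure D3:**
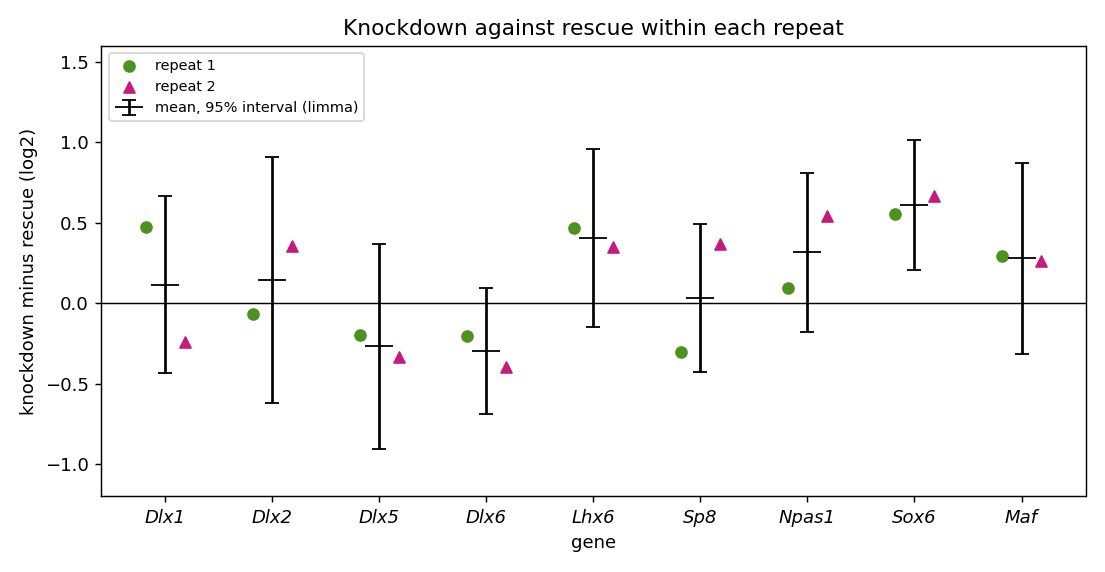
Knockdown minus rescue on the log2 scale (vertical axis) for each gene (horizontal axis), with green circles for repeat 1, pink triangles for repeat 2, and the black dash and whiskers for the limma mean and its 95% interval in the fit without the repeat as a block. The interval of Sox6, 0.20 to 1.02, is the one that stays above 0, and the other 8 cross it.

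Genes that work with these factors were read from lists chosen by function. Of 20 other lineage regulators measured, 0 passed the limma threshold in any comparison. At an unadjusted p under 0.05 there were 3, 2 and 2, against 16.0%, 7.44% and 6.82% of all genes. In the blocked fit Dlx1as alone passed, in the knockdown, where 5.39% of all genes did. Their medians were -0.03 and -0.21 in the knockdown repeats and -0.01 and -0.14 with rescue. Sp9, the close relative of Sp8, was at -0.12 and -0.27, then at -0.13 and -0.45. Prox1 and Nr2f2, both known from caudal eminence interneurons, had rescue means of -0.84 (-0.99 and -0.68) and -0.43 (-0.32 and -0.54), with limma adjusted p = 0.414 and 0.573. Satb1, which acts with Lhx6 in somatostatin neurons, was at 0.11 and -0.35, then at 0.06 and 0.26. Npas3, a relative of Npas1, was at 0.38 and 0.42 in the knockdown and at -0.06 and -0.01 in the rescue.

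Genes of GABA synthesis and of interneuron migration had median ratios below control in every sample. Of 14 measured, 0 passed in any comparison by limma, with 6, 8 and 3 at an unadjusted p under 0.05, on backgrounds of 16.0%, 7.44% and 6.82%. Below control in both repeats were 5 in the knockdown, with 3 above it in both (31.1% and 30.5% of all genes), and 10 in the rescue (29.8%). With the repeat as a block 5 passed in the knockdown (5.39% of all genes) and 1 in the rescue (0.125%), all lower. Their medians were -0.14 and -0.41 in the knockdown repeats and -0.33 and -0.45 with rescue. Gad1, a GABA-synthesising enzyme and a known Dlx target, was at -0.65 and -1.14 in the knockdown and at -0.84 and -0.91 in the rescue. It lay below control in all 4 samples, as Dlx6 did, with a knockdown mean of -0.90 (SE 0.14, n = 2, limma adjusted p = 0.0583). With the block it passed in the knockdown (adjusted p = 0.00942) and in the rescue (0.0482). Gad2, the other such enzyme, was at -0.34 and -0.58, then at -0.28 and -0.58. Slc32a1, the vesicular GABA transporter, went apart from them at 0.36 and 0.34 in the knockdown repeats and -0.41 and -0.20 with rescue, above control and then below it like Sox6.

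Of 20 interneuron subtype markers, 11, 8 and 3 had an unadjusted p under 0.05 in the 3 comparisons (16.0%, 7.44% and 6.82% of all genes). At the adjusted threshold 1 fell in the knockdown against control, where 0.306% of all genes were called. The 1 was Cck, a neuropeptide that cortical projection neurons express too, at -0.99 and -1.51 in the knockdown repeats and 0.29 and 0.24 with rescue (knockdown mean -1.25, SE 0.15, n = 2, limma adjusted p = 0.0219). Its limma adjusted p against the rescue was 0.0748, or 0.00902 once the repeat entered as a block. Calb2, the calcium buffer calretinin of many caudal eminence interneurons, was at -0.33 and -2.82 in the knockdown and at -0.51 and -0.87 in the rescue (knockdown adjusted p = 0.165 in limma, 0.0217 with the block). Sst, the peptide of Lhx6- and Sox6-dependent cells, was at 0.45 and -0.67, then at 0.09 and -0.54, so it was above control in repeat 1 and below it in repeat 2 in both groups, as Dlx2 was. Vip and Htr3a, of caudal eminence cells, were at 0.14 and -0.88 and at 0.07 and -0.93 in the knockdown. In the rescue they were at -0.53 and -0.71 and at -0.81 and -0.94. Lamp5 was at -1.17 and -0.54, then at 0.64 and 0.62, above control in the rescue as Cck was. Pvalb, the parvalbumin gene, was at -0.01 and -0.23, then at 0.39 and -0.27. In the rescue 11 of the 20 were below control in both repeats (29.8% of all genes), and 4 were above it in both. With the repeat as a block 9 of the 20 passed as lower and 1 as higher in the knockdown (5.39% of all genes), and 2 as lower against the rescue (0.617%). The list's medians were -0.18 and -0.82 in the knockdown repeats and -0.18 and -0.28 with rescue.

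Excitatory projection neuron factors had their lowest median in knockdown repeat 2, as the other lineage regulators and the subtype markers did. Of 18 measured, 0 passed the threshold by limma in any comparison. At an unadjusted p under 0.05 there were 6, 3 and 3, against 16.0%, 7.44% and 6.82% of all genes. Blocked by repeat, 4 passed as lower in the knockdown (5.39% of all genes) and 1, Neurod6, as lower against the rescue (0.617%). Their medians were -0.09 and -0.28 in the knockdown repeats and -0.11 and -0.02 with rescue. In rescue repeat 2, where all 9 interneuron factors were below control, 12 of 18 were below it. So were 14 of the 20 other interneuron lineage regulators and 52.9% of all genes. Neurod6 was at -0.81 and -2.49 in the knockdown and at 0.90 and -0.18 in the rescue, with limma adjusted p = 0.103 against control and 0.351 against rescue, or 0.0012 and 0.0057 with the block. General neuron markers, 10 in number, had rescue medians of 0.08 and 0.03 and knockdown medians of -0.08 and -0.29.

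**Figure D4:**
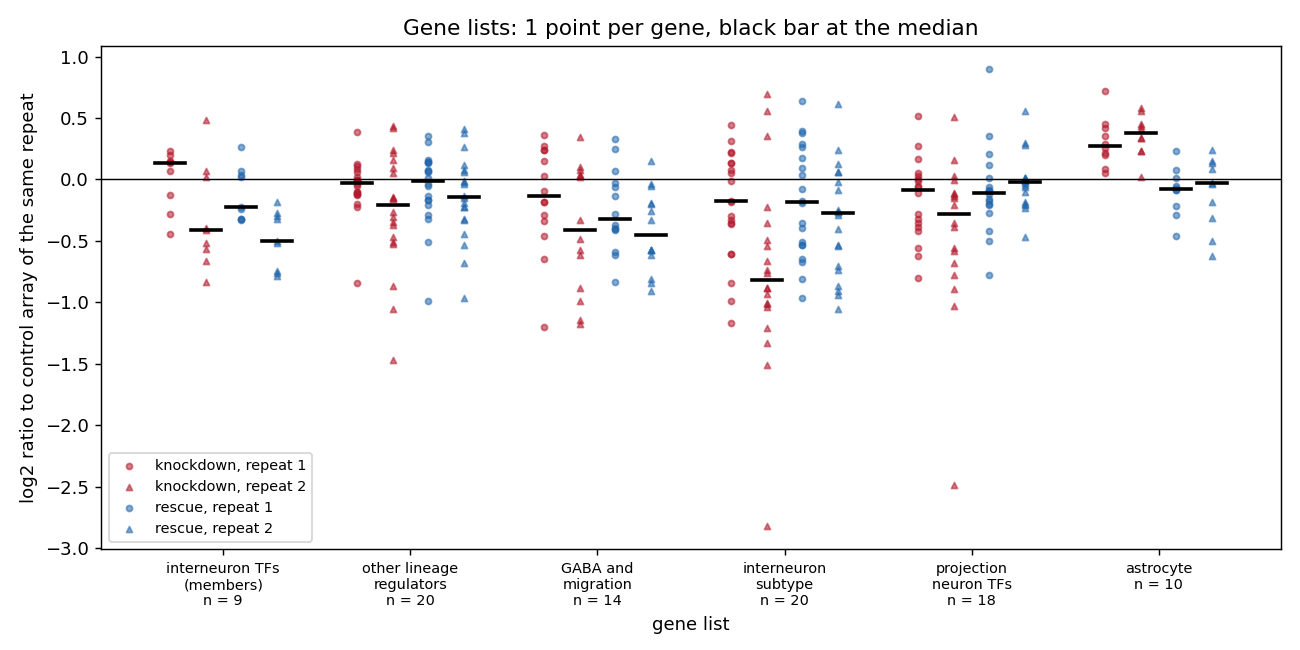
Log2 ratio to control (vertical axis) of every measured gene of 6 lists (horizontal axis), 4 columns of points per list in the order knockdown repeats 1 and 2 (red) and rescue repeats 1 and 2 (blue); black bars are medians. The interneuron factor medians run 0.13, -0.42, -0.23 and -0.50, while the astrocyte medians are above 0 in the knockdown, at 0.27 and 0.37.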

How the data were processed

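Affymetrix mouse Gene 1.0 ST arrays were read in 2 knockdown and 2 rescue samples. The authors deposited linear ratios, which per the labels divide each test array by its repeat's control array. The 2 control arrays themselves were not analysed here. For the steps that turned probe signals into values, the method was not stated in these sources, and its effect on a ratio is unknown. The deposited ratios had column medians of 0.9952 to 1.006. Of 35399 probe sets, 21789 had exactly 1 symbol, 1621 several and 11989 none; 21698 symbols were matched by Entrez identifier to RefSeq names (GRCm38.p6), which changed 0.

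Ratios were put on the log2 scale without centring and averaged per symbol (19938 genes, 999 from several probe sets). limma 3.58.1 in R 4.3.3 (lmFit, eBayes, two-sided) fitted 1 coefficient per group on all 4 columns, with 2 residual and 6.11 prior degrees of freedom. Each coefficient was tested against 0, which leaves out the spread of the control other than between repeats, and the difference compared knockdown with rescue. P-values were adjusted over all genes. The method was tested on simulated data. The number of arrays limits the precision, and the labels do not say that repeats were separate cultures, so p-values may measure technical spread.

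Samples with the same number belong to the same repeat in the labels, which pairs them. Their deviations from the group means correlated at 0.305 across genes. Blocking on the repeat was an alternative, beside other scalings, probe set handling, gene filters, priors and left-out samples. All 9 members were named. Genes of other lists were named from the up to 4 with the largest mean change in either group, and likeness from the 5 nearest profiles. Sp9, Dlx4, Satb1, Gad2, Slc32a1, Aldoc, Sst, Pvalb and Vip were named for their role, with their values known. The members and lists were chosen with earlier results of these data known.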

Additional observations from a re-analysis of the deposited data

Results flagged for a closer look

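Sox6 stood above control in both knockdown samples (0.23 and 0.49 on the log2 scale) and below it in both rescue samples (-0.32 and -0.18), with a difference of 0.61 between the groups. The difference was tested with limma and did not pass (adjusted p = 0.420, and 0.121 to 0.999 over 10 alternative settings). No other of the 9 genes had both knockdown samples on one side of control and both rescue samples on the other. The share of all genes with such a split was not counted.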

How the results depend on the processing

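Across 288 combinations of a gene, comparison and alternative, 267 kept their direction and their side of the threshold, 4 passed it (Dlx5 and Dlx6 in the knockdown, with the replicate block and without knockdown replicate 1) and 17 changed direction. All 17 came from leaving out a replicate, and none of these had passed. Only rescaling, or leaving out a sample of a compared group, could change a direction. The other settings kept the group means of these genes by construction. Against control, leaving out a sample of the other group gave the same fit as the group's columns alone. The 267 are therefore not separate checks. The number of members called in knockdown against control was 2 with the replicate block and 0 to 2 with a replicate left out; in the other comparisons it was 0 throughout. Against control, all genes called in the knockdown numbered 61, or 20 after quantile normalization, 1074 with the replicate block, 12 with the group's columns alone and 12 to 1272 with a replicate left out. In the rescue they numbered 0, or 1, 25, 176 and 0 to 176 in the same order. Between knockdown and rescue they numbered 14, or 4 after centring, 2 after quantile normalization, 123 with the replicate block, 4 with a robust prior, 4 over probe sets and 0 to 350 with a replicate left out. With a replicate left out, knockdown means ran from -0.56 to 0.15 for Dlx1, -0.39 to 0.20 for Dlx2, -0.42 to 0.14 for Lhx6, -0.52 to 0.066 for Maf and -0.28 to 0.067 for Sp8. Rescue means ran from -0.75 to 0.265 for Dlx2, -0.50 to 0.072 for Dlx5, -0.52 to 0.039 for Npas1 and -0.30 to 0.022 for Sp8. Differences between the groups ran from -0.24 to 0.47 for Dlx1, -0.36 to 0.65 for Dlx2, -0.62 to 0.086 for Dlx5, -0.014 to 0.57 for Maf and -0.14 to 0.21 for Sp8. The group's columns alone give no separate fit for knockdown against rescue. Ratios carry no signal over background, so how bright a probe set was is unknown.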

Other observations

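Striatal projection neurons share the Dlx lineage, and 8 of their markers were measured. Their medians were -0.20 and -0.06 in the knockdown repeats and 0.00 and 0.02 with rescue, with 0 past the limma threshold in each comparison and 2 at an unadjusted p under 0.05 in each. With the repeat as a block 2 passed as lower in the knockdown, where 5.39% of all genes did, 1 as higher in the rescue (0.125%) and 1 as lower against the rescue (0.617%). Penk, the enkephalin precursor of indirect-pathway neurons, was at -0.75 and 0.29 in the knockdown and at 1.34 and 1.20 in the rescue (limma adjusted p with the block 0.0493 for the rescue and 0.0414 between the groups). Drd2, a dopamine receptor of the same neurons, was at -0.65 and -0.70, then at -0.21 and 0.13 (knockdown adjusted p 0.0199 with the block). The 10 vascular and fibroblast markers had medians of -0.06 and 0.41 in the knockdown repeats and -0.01 and -0.01 with rescue. Olig1, a factor of the oligodendrocyte lineage, was at 0.03 and -0.67, then at -0.16 and -1.15, lower in repeat 2 in both groups as Lhx6 and Maf were.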
